A study of Mus musculus with 12 samples.

Results

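The genes described here are 10 genes of nitric oxide, arginine and polyamine metabolism, taken by symbol from the 56941 gene rows of a count table: Nos2, Gch1, Ass1, Asl, Slc7a1, Slc7a2, Arg1, Arg2, Odc1, and Sat1. They were followed in 12 bulk RNA-seq libraries of 3T3-L1 cells, an established mouse embryonic fibroblast line of wild-type genotype, with 3 libraries in each of 4 conditions. Control cells were given vehicle by their treatment label and are called untreated in their library names. IL-4/13 cells received both interleukins, each at 50 ng/mL, and Inf cells received an inflammatory cocktail of 20 ng/mL TNF-α, 50 ng/mL IL-17A, and 0.5 ng/mL IL-1β. The fourth condition, IL-4/13 + Inf, received all 5 cytokines, and every condition lasted 24 hours. All libraries come from this single line and share 1 batch label, and nothing in the labels says whether replicates are separate cultures, so the p-values below measure the spread between libraries, which may be technical.

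Arginine links these genes. Nitric oxide synthases oxidize it to nitric oxide (NO) and citrulline with tetrahydrobiopterin (BH4) as a cofactor, and argininosuccinate synthase and lyase turn citrulline back into arginine. Arginases instead split arginine into urea and ornithine, and ornithine decarboxylase makes putrescine from ornithine, the first of the polyamines. In macrophages, Nos2 is a textbook marker of activation by inflammatory stimuli and Arg1 of activation by IL-4 and IL-13, and the 3T3-L1 fibroblasts here received both kinds of cytokine.

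Promoter windows from RefSeq (GRCm38.p6) were matched by symbol to 5 of the 10 genes, Ass1, Gch1, Slc7a1, Odc1, and Sat1, in 6 windows. The 250 bases before the annotated start are printed for 2 genes that rose with Inf, Ass1 and Gch1, for the upstream start of Slc7a1, which fell with Inf, and for Odc1, which rose where IL-4/13 were added to Inf. Capitals mark matches, on either strand, to the NF-kB motif, TTC and GAA spaced by 3 or 4 bases (STAT motifs), TGANTCA (AP-1), CACGTG (E-box), or GGGCGG (GC box).
Ass1, chr2:31470020-31470269, plus strand: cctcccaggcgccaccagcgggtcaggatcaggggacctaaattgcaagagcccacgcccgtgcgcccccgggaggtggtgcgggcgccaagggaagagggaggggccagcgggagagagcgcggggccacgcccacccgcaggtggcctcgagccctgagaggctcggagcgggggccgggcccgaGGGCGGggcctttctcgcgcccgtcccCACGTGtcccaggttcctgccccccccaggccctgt
Gch1, chr14:47189414-47189663, minus strand: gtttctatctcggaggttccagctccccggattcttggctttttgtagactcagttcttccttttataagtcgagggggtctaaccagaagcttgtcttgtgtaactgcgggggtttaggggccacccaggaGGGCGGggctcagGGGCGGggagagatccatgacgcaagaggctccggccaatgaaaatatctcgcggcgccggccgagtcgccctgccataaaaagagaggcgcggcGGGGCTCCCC
Slc7a1, chr5:148399905-148400154, minus strand: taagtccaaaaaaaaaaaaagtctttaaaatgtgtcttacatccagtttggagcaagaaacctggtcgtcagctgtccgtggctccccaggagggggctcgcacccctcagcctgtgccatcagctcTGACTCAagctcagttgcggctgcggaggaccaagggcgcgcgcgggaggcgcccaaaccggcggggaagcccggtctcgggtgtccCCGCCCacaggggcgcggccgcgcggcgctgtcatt
Odc1, chr12:17544623-17544872, plus strand: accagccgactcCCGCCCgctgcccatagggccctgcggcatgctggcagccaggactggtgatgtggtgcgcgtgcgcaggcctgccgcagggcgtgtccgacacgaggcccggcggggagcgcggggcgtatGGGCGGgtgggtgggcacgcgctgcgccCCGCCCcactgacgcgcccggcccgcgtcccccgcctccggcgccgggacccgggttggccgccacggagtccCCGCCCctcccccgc
Gch1 held an NF-kB match in the last 10 bases before its start, from -10 to -1, a motif found in 7.25% of all 32851 promoter windows. Ass1 held CACGTG from -36 to -31, found in 6.02% of windows, and Slc7a1 held TGACTCA from -123 to -117, a form of TGANTCA, found in 6.75%. The downstream window of Slc7a1, which is not printed, held TTCAAAGAA from -146 to -138, a form of TTCNNNGAA, found in 7.02% of windows, and this was the only match to a STAT motif in the 6 windows. Odc1 held 4 matches to GGGCGG, found in 32.7% of windows, and to none of the other motifs. Sat1, which also rose with Inf, held GGGCGG matches from -72 to -67 and from -6 to -1. It matched none of the other motifs, and its window is not printed. None of the matches overlapped another, and a match is a description of the letters, not a binding site.

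Counts were scaled to library size and are given as CPM, a gene's share of its library, and 14810 genes passed the filter on low counts. Total counts per library ranged from 13446005 to 20775769. All 12 fibroblast markers passed the filter, with a summed level of 17100 to 19980 CPM in control, 14670 to 15500 with IL-4/13, 14150 to 15660 with Inf, and 12080 to 12460 with IL-4/13 + Inf. Single markers went both ways with Inf by the test described below. Dcn (103 to 1756 CPM), Lum (2.25 to 22.4), Pdgfra (196 to 384.5), and Pdgfrb (269 to 481) rose. Col1a1, Col1a2, Col5a1, Vim, Thy1, and Fn1 fell, and Col3a1 and S100a4 did neither. Of 12 macrophage markers 4 passed, and the list summed to 7.26 to 8.22 CPM in control, 5.83 to 7.42 with IL-4/13, 8.86 to 10.1 with Inf, and 6.74 to 9.56 with IL-4/13 + Inf. Of these markers, Tyrobp alone was at 0 counts in every library, and 6 never exceeded 3 counts. Of 6 adipocyte markers Fabp4 alone passed, and the list summed to 10.7 to 12.3 CPM in control, 13.6 to 20.4 with IL-4/13, 28.7 to 32.2 with Inf, and 17.4 to 21.3 with IL-4/13 + Inf. Of 4 endothelial markers 1 passed (sum at most 1.76 CPM), and of 4 markers of hepatocytes, a cell type rich in Arg1, Ass1, and Asl, none did (sum at most 0.225 CPM). The endothelial marker that passed, Cdh5, had at most 22 counts in a library with Inf. By the same test it rose with Inf (log2 fold change 2.73, adjusted p = 0.00127) and with IL-4/13 + Inf (2.19, adjusted p = 0.0167). The part of these differences in the results was not tested, and in bulk RNA a change in the number of cells of a type and in the RNA per cell cannot be told apart.

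Of the 10 genes, 9 passed the filter and were tested, and Arg1 did not. Nos2, Gch1, and Arg2 passed only through libraries that received Inf, so they could be counted only by being high there. All 10 genes were chosen with earlier results of these data known. The counts and medians that follow are therefore a description and not a test of the set. With Inf, 7 of the 9 rose and 1 fell against control, where 16.3% of all tested genes rose and 15.3% fell. With IL-4/13 alone, 1 rose and 0 fell, where 2.78% of all genes rose and 2.57% fell. With IL-4/13 + Inf, 7 rose and 1 fell against control, where 13.4% and 11.5% of all genes did. Where IL-4/13 + Inf was compared with Inf, 3 rose and 1 fell, against 7.55% and 7.0% of all genes. The median log2 fold change of the 9 was 1.66 with Inf and 1.54 with IL-4/13 + Inf against control, beside medians of 0.01 and -0.00 for all tested genes. It was 0.04 with IL-4/13 alone (all genes, -0.00) and 0.13 for IL-4/13 + Inf against Inf (all genes, -0.01). A gene was called as risen or fallen where its adjusted p was below 0.05 and its log2 fold change exceeded 0.25 in size, by edgeR's quasi-likelihood test with Benjamini-Hochberg adjustment over all tested genes, and this test gave every adjusted p below. Each SE below is the size of the log2 fold change divided by the square root of the F statistic of this test. It is back-calculated in this way and need not cover the counting error of genes with few counts. These comparisons share libraries and are not independent of one another.

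**Figure D1:**
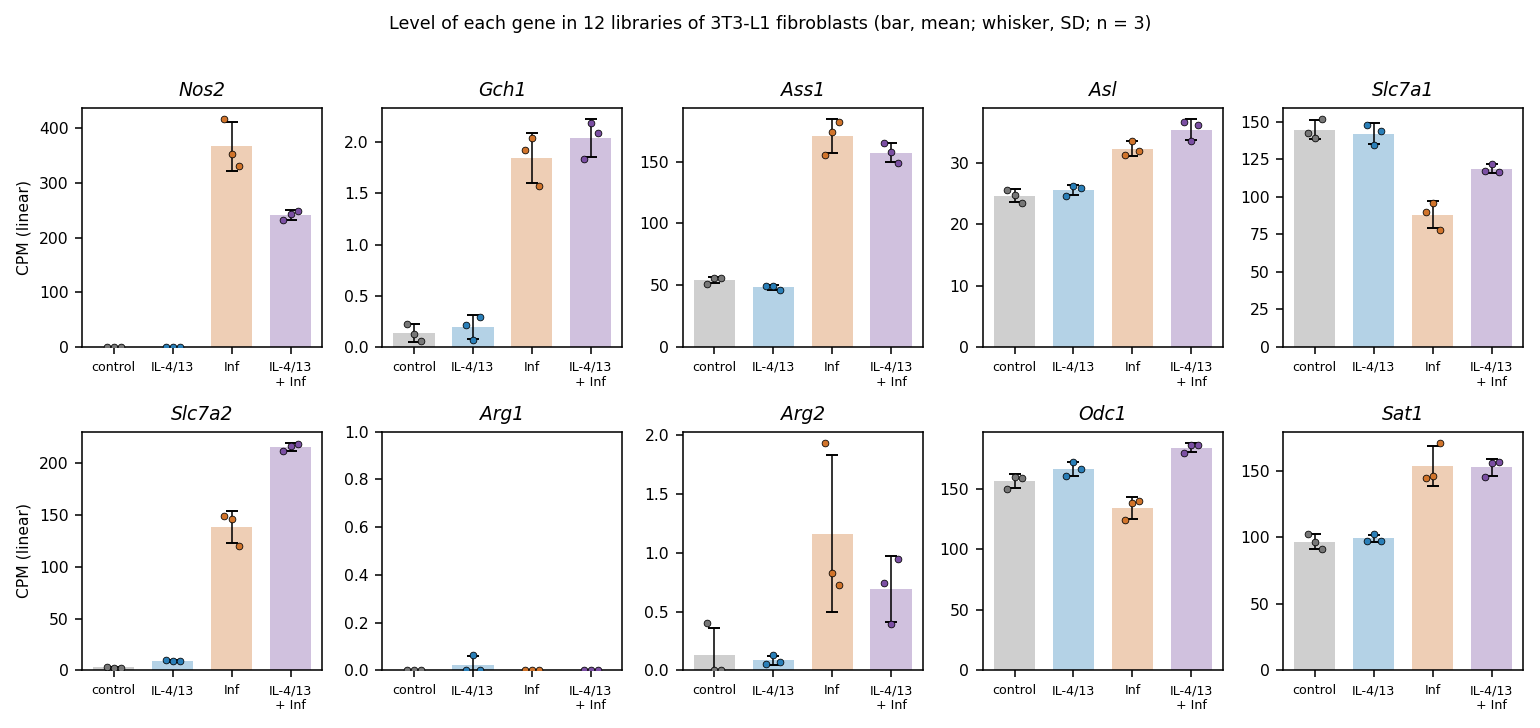
CPM on a linear scale (y axis) of each of the 10 genes in the 4 conditions (x axis), where points are libraries, bars are means, and whiskers are SDs (n = 3), cut at 0. Nos2 is near 0 in all 6 libraries without Inf and between 231.9 and 416 CPM in all 6 with it, Slc7a1 is lowest with Inf, and Arg1 stays at the axis.

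Nos2, which encodes the inducible NO synthase, had the largest change of the 10 genes. Its counts were 2, 0, and 6 in control and 0, 1, and 0 with IL-4/13, then 6261, 7260, and 5454 with Inf and 4676, 4311, and 3693 with IL-4/13 + Inf. In CPM these were 0.158 ± 0.18 in control, 367 ± 44.2 with Inf, and 241 ± 8.73 with IL-4/13 + Inf (SD, n = 3 each). Nos2 was therefore all but undetected without Inf and was among the well-detected genes with it, with no overlap between the groups. The ratio of Inf to control was 2290, with an exact 95% interval of 1162 to 5306 that covers counting error only, and that of IL-4/13 + Inf to control was 1510 (766.3 to 3499). The fitted log2 fold change was 11.10 with Inf (SE 0.21, adjusted p = 5.29e-14) and 10.50 with IL-4/13 + Inf (SE 0.22, adjusted p = 1.37e-13). These values rest on the 8 control counts, 6 of them in control replicate 3, without which they were 12.42 and 11.82. Leaving out 1 library at a time gave 10.57 to 12.42 with Inf, a wider range than the SE of 0.21 conveys.

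Adding IL-4/13 to Inf lowered Nos2. Its level was 416, 354, and 331 CPM with Inf and 231.9, 242, and 249 CPM with IL-4/13 + Inf, so every library with all 5 cytokines lay below every library with Inf. The log2 fold change was -0.60 (SE 0.085, adjusted p = 0.000204), or 0.658 of the level with Inf. With IL-4/13 alone, Nos2 had 1 count in 3 libraries against 8 in control, a ratio of 0.132 (0.00297 to 0.983, counting error only), and the fitted log2 fold change of -2.55 was not called (adjusted p = 0.417). The response of Nos2 to IL-4/13 with Inf was not shown to differ from that without Inf (adjusted p = 0.679), and the latter rests on 9 counts in all. Of the 4 tested macrophage markers, 1 was called with Inf, Mrc1, which rose from 0.181 to 2.11 CPM (log2 fold change 3.51, SE 0.41, adjusted p = 2.42e-08). The other 3 had log2 fold changes with Inf of -0.44 for Csf1r (adjusted p = 0.177), 0.12 for Cd68 (adjusted p = 0.833), and 0.13 for Lyz2 (adjusted p = 0.711). Where IL-4/13 were added to Inf, Lyz2 was lower (-0.74, adjusted p = 0.0307), and with IL-4/13 + Inf Csf1r was below control (-0.81, adjusted p = 0.0185). Fcer1g, which did not pass the filter, had 1, 0, and 0 counts in control and 4, 4, and 3 with Inf. It had 0, 0, and 1 with IL-4/13 and 1, 3, and 2 with IL-4/13 + Inf. Ptprc, also short of the filter, had 4 counts in control replicate 3 and 5 in IL-4/13 replicate 2, and at most 1 in any library with Inf. Adgre1, Itgam, and Tyrobp had at most 1 count in any library. The part of cells expressing Mrc1 or Fcer1g in the result was not tested. The 2 other NO synthase genes, Nos1 and Nos3, did not pass the filter and averaged at most 0.501 and 0.253 CPM in any condition.

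Gch1 encodes GTP cyclohydrolase, the first and rate-limiting enzyme of BH4 synthesis. It rose with Inf from a level near the limit of detection, with 4, 2, and 1 counts in control, 4, 1, and 4 with IL-4/13, 29, 42, and 26 with Inf, and 37, 39, and 31 with IL-4/13 + Inf. The mean was 0.138 ± 0.085 CPM in control, 0.191 ± 0.12 with IL-4/13, 1.85 ± 0.24 with Inf, and 2.04 ± 0.18 with IL-4/13 + Inf (SD, n = 3 each). The ratio to control was 13.4 with Inf (6.25 to 34.2) and 14.6 with IL-4/13 + Inf (6.83 to 37.1, counting error only). Both rises passed the test, with a log2 fold change of 3.67 for Inf (SE 0.47, adjusted p = 1.58e-07) and 3.80 for IL-4/13 + Inf (SE 0.47, adjusted p = 7.01e-08). The libraries with Inf and with IL-4/13 + Inf overlapped, and so did those with IL-4/13 and control, and neither difference passed the test (log2 fold change 0.13, adjusted p = 0.803, and 0.42, adjusted p = 0.814). The span of Gch1 overlaps those of Gm18811 on the same strand and Gm49134 on the other. Reads from any shared exon cannot be assigned with certainty.

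Of 19 further genes of NO synthesis, BH4, and the NO response, 12 passed the filter. With Inf, 2 of the 12 rose and 3 fell, beside 16.3% and 15.3% of all tested genes, with a median log2 fold change of 0.08 (all genes, 0.01). Gchfr, whose protein is a feedback regulator of GTP cyclohydrolase, rose from 17.2 ± 1.85 CPM in control to 25.8 ± 3.30 with Inf (log2 fold change 0.57, SE 0.10, adjusted p = 2.17e-05). It fell to 11.7 ± 1.00 with IL-4/13 alone (-0.56, SE 0.11, adjusted p = 0.000757), and was 19.1 ± 0.81 with IL-4/13 + Inf, below Inf (-0.43, SE 0.098, adjusted p = 0.00156). Pts, a later enzyme of BH4 synthesis, was the other gene to rise with Inf, by 0.31 (adjusted p = 0.0415), and it fell where IL-4/13 were added to Inf (-0.36, adjusted p = 0.0323). Ddah2, which degrades an inhibitor of NO synthases, was lower with IL-4/13 + Inf than with Inf as well (-0.47, adjusted p = 6.65e-06). Pts and Ddah2 were named after their values were seen.

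Both genes of the cyclic GMP-dependent kinases fell with Inf. Prkg2 and Prkg1 encode kinases activated by cyclic GMP, the messenger made by NO-sensitive guanylyl cyclase. Prkg2 was at 142, 159, and 149.9 CPM in control, 155, 142, and 124 with IL-4/13, 51.6, 58.9, and 61.1 with Inf, and 59.01, 59.8, and 56.0 with IL-4/13 + Inf. Its level with Inf was well below control in every library (log2 fold change -1.39, SE 0.072, adjusted p = 2.16e-13), and IL-4/13 made no called difference with or without Inf. Prkg1 was at 3.998 ± 0.19 CPM in control, 1.21 ± 0.28 with Inf, and 0.871 ± 0.025 with IL-4/13 + Inf, with a log2 fold change of -1.70 for the former (SE 0.24, adjusted p = 7.03e-07) and -2.19 for the latter (SE 0.25, adjusted p = 2.06e-08). Gucy1b1, the beta subunit of the NO-sensitive guanylyl cyclase, had 1 count in the 12 libraries together, and the alpha subunits were at most at 0.0414 CPM (Gucy1a1) and 0.323 CPM (Gucy1a2) in any condition. With IL-4/13 alone, Ddah1, which like Ddah2 degrades an inhibitor of NO synthases, rose by 0.33 (adjusted p = 2.59e-05). The guanylyl cyclase genes and Ddah1 were named after their values were seen.

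Ass1, argininosuccinate synthase, is the rate-limiting step of arginine resynthesis from citrulline. It was at 51.1, 55.7, and 55.6 CPM in control and 49.3, 49.4, and 45.9 with IL-4/13. It was at 156, 174, and 182 CPM with Inf and 165, 158, and 149 with IL-4/13 + Inf. All 6 libraries with Inf stood at about the same height, far above the 6 without it. The log2 fold change was 1.66 with Inf (SE 0.059, adjusted p = 1.87e-20) and 1.54 with IL-4/13 + Inf (SE 0.059, adjusted p = 1.23e-19), which are 3.15 and 2.91 times control. Adding IL-4/13 to Inf made no called difference (-0.12, SE 0.055, adjusted p = 0.134), nor did IL-4/13 alone (-0.17, SE 0.064, adjusted p = 0.110), although the 3 IL-4/13 libraries lay below the 3 of control.

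The Ass1 row cannot be separated fully from a copy of the gene. Of the 50-base stretches of its longest transcript, 55.3% also occur in Gm5424, whose row held 980 to 1460 counts without Inf and 3390 to 5185 with it, more than Ass1 itself. With the counts of both rows summed, the log2 fold change was 1.60 with Inf and 1.52 with IL-4/13 + Inf. Asl, argininosuccinate lyase, completes the resynthesis and shared no 50-base stretch with another gene. It was at 24.6 ± 1.04 CPM in control, 25.6 ± 0.84 with IL-4/13, 32.3 ± 1.22 with Inf, and 35.4 ± 1.68 with IL-4/13 + Inf (SD, n = 3 each). Asl rose by 0.39 on the log2 scale with Inf (SE 0.074, adjusted p = 6.40e-05) and by 0.52 with IL-4/13 + Inf (SE 0.073, adjusted p = 7.66e-07), and no library with Inf overlapped control. Both steps of the resynthesis were thus higher with Inf, whether or not IL-4/13 were present. Otc and Cps1, the mitochondrial steps of the hepatic urea cycle, never exceeded 2 counts in a library.

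With Inf, Slc7a2 and Slc7a1, whose proteins carry arginine into the cell, changed in opposite directions. Slc7a2 encodes CAT-2, the cationic amino acid transporter known to be inducible in macrophages, and Slc7a1 encodes CAT-1, the widely expressed one. Slc7a2 was at 3.26, 2.73, and 2.58 CPM in control and at 9.81, 8.88, and 8.75 with IL-4/13. It reached 149, 146, and 120.1 CPM with Inf and 212, 217, and 219 with IL-4/13 + Inf. The 4 conditions did not overlap and stood in that order. The log2 fold change against control was 1.68 with IL-4/13 (SE 0.14, adjusted p = 6.26e-10), 5.59 with Inf (SE 0.098, adjusted p = 4.75e-27), and 6.23 with IL-4/13 + Inf (SE 0.096, adjusted p = 1.53e-28), or 3.20, 48.1, and 75.1 times control. Slc7a2 was the only one of the 9 tested genes called with IL-4/13 alone.

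IL-4/13 raised Slc7a2 also on top of Inf, by 0.64 on the log2 scale (SE 0.060, adjusted p = 3.03e-09). On that scale the response was smaller with Inf than without it, and the difference between the responses passed the test (-1.04, SE 0.16, adjusted p = 6.88e-05). In CPM the order was the reverse, since IL-4/13 added 6.29 CPM without Inf and 77.6 CPM with it. The 2 statements describe the same 12 values, once as ratios and once as increments.

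Slc7a1 was at 143, 139.6, and 152 CPM in control, 148, 134, and 144 with IL-4/13, 90.3, 96.1, and 78.2 with Inf, and 117, 122, and 117 with IL-4/13 + Inf. It fell with Inf in every library (log2 fold change -0.71, SE 0.059, adjusted p = 4.48e-11), the only one of the 9 tested genes to do so past both thresholds. With IL-4/13 + Inf it lay between the levels of Inf and control, 0.43 above Inf (SE 0.060, adjusted p = 3.36e-06) and 0.28 below control (log2 fold change -0.28, SE 0.058, adjusted p = 0.000250). The latter call was lost without control replicate 3, where the value was -0.249, just under the threshold. IL-4/13 alone made no called difference (-0.03, SE 0.058, adjusted p = 0.867). The response to IL-4/13 differed between the presence and the absence of Inf, by 0.45 (SE 0.083, adjusted p = 0.000912).

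**Figure D2:**
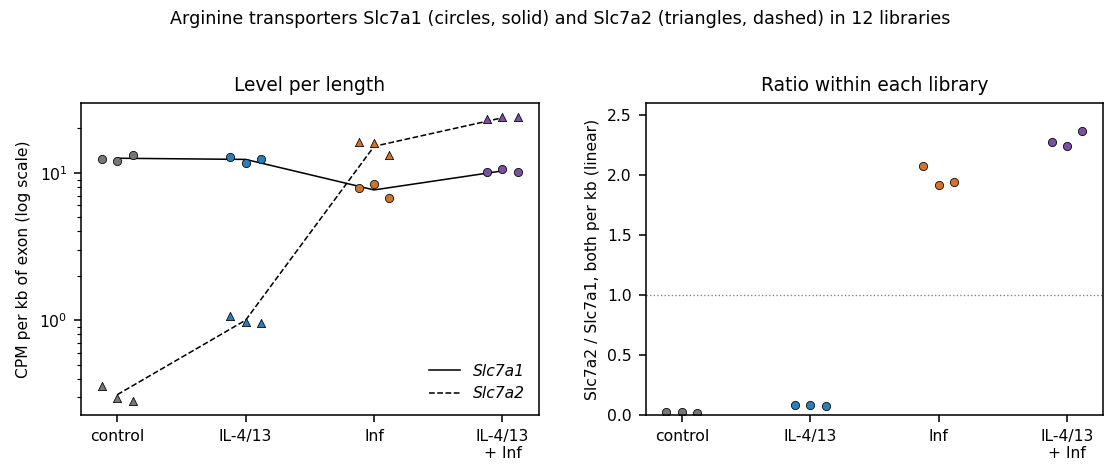
Left, CPM per kilobase of exon (y axis, log scale) of Slc7a1 (circles, solid line through the means) and Slc7a2 (triangles, dashed line) in each library of the 4 conditions (x axis). Right, the ratio of Slc7a2 to Slc7a1 within each library on a linear scale, with a dotted line at equality, where the libraries of control and IL-4/13 are at 0.0838 or below and those of the 2 conditions with Inf at 1.91 or above.

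Compared per kilobase of exon, Slc7a2 was far below Slc7a1 without Inf and above it with Inf. The ratio of Slc7a2 to Slc7a1 was 0.0250 ± 0.0037 in control, 0.0813 ± 0.0040 with IL-4/13, 1.98 ± 0.088 with Inf, and 2.29 ± 0.064 with IL-4/13 + Inf (SD, n = 3 each). The sizes depend on the length taken for each gene, and with the longest transcript in place of all exons the ratios were 0.0180, 0.0584, 1.42, and 1.65, still above 1 only with Inf. Of 11 further genes of arginine supply and the urea cycle, 6 passed the filter. With Inf, 1 of the 6 rose (Azin2, described below) and 2 fell, beside 16.3% and 15.3% of all tested genes. The median log2 fold change of the 6 was 0.06 (all genes, 0.01). Slc3a2, the heavy chain that pairs with several amino acid transporters, was at 274 ± 5.52 CPM in control, 235 ± 10.1 with IL-4/13, 190.2 ± 8.31 with Inf, and 203 ± 1.09 with IL-4/13 + Inf. It fell with Inf (-0.53, SE 0.044, adjusted p = 2.23e-11), and its response to IL-4/13 differed with Inf (0.32, SE 0.062, adjusted p = 0.00159). Slc25a15, which carries ornithine into mitochondria, fell with Inf (-0.61, SE 0.094, adjusted p = 2.97e-06) and was higher with IL-4/13 + Inf than with Inf (0.38, SE 0.095, adjusted p = 0.00364). Slc7a6, a transporter that works with Slc3a2 and is named here after its values were seen, was higher with IL-4/13 + Inf than with Inf (0.34, adjusted p = 1.48e-06).

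Neither arginase gene was abundant in any condition. Arg1 had 1 count in the 12 libraries together, in IL-4/13 replicate 2. A level of 3 counts, taken as the limit of detection, corresponds to 0.146 to 0.221 CPM in these libraries, so Arg1 was not detectable at this depth with IL-4/13, with Inf, or with both. Arg2, the mitochondrial arginase, had 7, 0, and 0 counts in control, 1, 2, and 1 with IL-4/13, 29, 17, and 12 with Inf, and 15, 7, and 14 with IL-4/13 + Inf. It reached 1.16 ± 0.67 CPM with Inf and 0.694 ± 0.28 with IL-4/13 + Inf (SD, n = 3 each), the former above every control library and the latter overlapping control. The ratio to control was 8.001 with Inf (3.65 to 20.8) and 4.90 with IL-4/13 + Inf (2.15 to 13.1, counting error only).

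The log2 fold change of Arg2 was 2.97 with Inf (SE 0.69, adjusted p = 0.000998) and 2.25 with IL-4/13 + Inf (SE 0.75, adjusted p = 0.0215). All 7 control counts lay in control replicate 1, without which the value was 7.27 with Inf and 6.55 with IL-4/13 + Inf. The call with IL-4/13 + Inf was lost without control replicate 2, control replicate 3, IL-4/13 + Inf replicate 1, or IL-4/13 + Inf replicate 3, with adjusted p up to 0.0948. Part of Arg2 overlaps Vti1b on the other strand, 21.2% of its 50-base stretches occur in other genes, and the strand setting of the counting is not given in the sources used here, so reads from the overlap cannot be assigned with certainty.

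**Figure D3:**
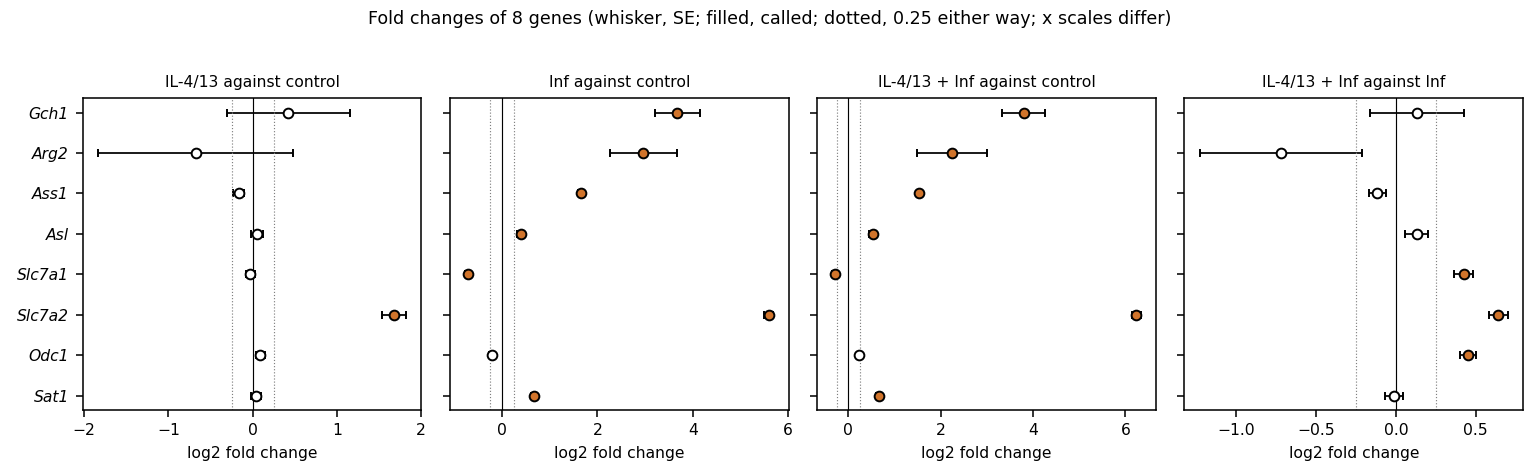
Log2 fold changes (x axis, scales differ between panels) of 8 of the 9 tested genes (y axis) in 4 comparisons, with whiskers for the SE, filled symbols for called changes, and dotted lines at 0.25 either way. The SEs are back-calculated from the F statistic of the test. Nos2, with 11.10 in Inf against control, is left out, Slc7a2 is the single filled symbol with IL-4/13 alone, and Slc7a1, Slc7a2, and Odc1 are filled on the right for IL-4/13 + Inf against Inf.

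Odc1 encodes ornithine decarboxylase, the rate-limiting enzyme that forms putrescine. It was at 150.0, 159.6, and 159 CPM in control, 161, 172, and 167 with IL-4/13, 124, 139, and 139.7 with Inf, and 179, 186, and 186 with IL-4/13 + Inf. Its lowest libraries were those with Inf and its highest those with IL-4/13 + Inf. Against Inf, IL-4/13 + Inf was higher by 0.45 on the log2 scale (SE 0.049, adjusted p = 2.91e-08), or 1.37 times. Against control the differences were small, at -0.22 with Inf (SE 0.049, adjusted p = 0.000562) and 0.24 with IL-4/13 + Inf (SE 0.049, adjusted p = 0.000265), and neither reached the fold threshold of 0.25. With IL-4/13 alone the log2 fold change was 0.09 (SE 0.049, adjusted p = 0.290). The response to IL-4/13 differed with Inf by 0.36 (SE 0.069, adjusted p = 0.00130). Of the 50-base stretches of Odc1, 42.2% occur in 16 other genes. Gm7993 holds more of them than any other, and its row held 1107 to 2500 counts. With the counts of these rows added, the difference from Inf was 0.49 and that of IL-4/13 + Inf from control was 0.26, past the threshold.

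Sat1 encodes spermidine/spermine acetyltransferase, which starts the breakdown and export of polyamines. It was at 102, 96.3, and 91.0 CPM in control, 97.4, 103, and 97.6 with IL-4/13, 144, 146, and 171 with Inf, and 145, 156, and 157 with IL-4/13 + Inf. It rose with Inf by 0.67 (SE 0.059, adjusted p = 1.43e-10) and with IL-4/13 + Inf by 0.66 (SE 0.059, adjusted p = 2.10e-10) on the log2 scale. The libraries with Inf and with IL-4/13 + Inf overlapped, and so did those with IL-4/13 and control, with differences of -0.01 (adjusted p = 0.911) and 0.04 (adjusted p = 0.794). Where IL-4/13 were added to Inf, the mean of Odc1 was 49.8 CPM higher, while that of Sat1 was 154 CPM with Inf and 153 CPM with IL-4/13 + Inf. This contrast between genes was not tested.

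Of 20 further polyamine genes, 19 passed the filter. With Inf, 2 of the 19 rose and 6 fell, beside 16.3% and 15.3% of all tested genes, and with IL-4/13 + Inf against Inf, 6 rose and 1 fell, beside 7.55% and 7.0%. The median log2 fold change was -0.08 in the former (all genes, 0.01) and 0.13 in the latter (all genes, -0.01). Among those that fell with Inf were the steps that follow Odc1. Srm, spermidine synthase, was at 147, 139, and 152 CPM in control, 152, 159, and 160.2 with IL-4/13, 92.8, 94.9, and 98.8 with Inf, and 130.0, 139, and 137 with IL-4/13 + Inf. It fell with Inf (-0.61, SE 0.049, adjusted p = 9.17e-12), was higher with IL-4/13 + Inf than with Inf in every library (0.50, SE 0.049, adjusted p = 4.51e-09), and its response to IL-4/13 differed with Inf (0.40, SE 0.069, adjusted p = 0.000395). Sms, spermine synthase, went from 28.8 ± 0.88 CPM in control to 16.7 ± 1.41 with Inf (-0.78, SE 0.089, adjusted p = 1.86e-08) and 23.8 ± 2.47 with IL-4/13 + Inf (0.51 above Inf, SE 0.091, adjusted p = 8.59e-05).

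Amd1 and Amd2, near-identical genes of S-adenosylmethionine decarboxylase whose reads the counting could split, moved the same way. Amd2 fell by 0.49 with Inf (adjusted p = 0.00332) and was 0.59 higher with IL-4/13 + Inf than with Inf (adjusted p = 0.00135), and Amd1 fell by 0.44 (adjusted p = 1.62e-06) and was 0.36 higher (adjusted p = 0.000113). Smox, spermine oxidase, an enzyme of polyamine breakdown, went the other way. It was at 9.03 ± 0.91 CPM in control, 18.1 ± 1.29 with Inf (1.00, SE 0.11, adjusted p = 8.05e-09), and 13.9 ± 0.79 with IL-4/13 + Inf (-0.37 against Inf, SE 0.10, adjusted p = 0.00816). The last call was lost without IL-4/13 + Inf replicate 1 (-0.33, adjusted p = 0.0595). The other genes that fell with Inf were Dohh and Eif5a2, which belong to the hypusine modification that uses spermidine, and the other that rose was Mat2b, a subunit of the enzyme that makes S-adenosylmethionine. Higher with IL-4/13 + Inf than with Inf were also Mat2a, its catalytic subunit, and Eif5a. Amd1, Dohh, Eif5a2, Mat2a, Mat2b, and Eif5a were named after their values were seen.

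Azin2 was the gene of the arginine and polyamine lists with the largest rise with IL-4/13 alone. Its protein, an antizyme inhibitor, relieves ornithine decarboxylase of its inhibitor. It was at 18.8, 18.4, and 18.1 CPM in control, 65.8, 74.8, and 70.6 with IL-4/13, 31.3, 28.6, and 33.5 with Inf, and 117, 117, and 113 with IL-4/13 + Inf. The 4 conditions did not overlap. IL-4/13 raised it by 1.93 without Inf (SE 0.070, adjusted p = 3.76e-19) and by 1.90 with Inf (SE 0.064, adjusted p = 6.25e-20), and the difference between these responses was -0.03 (SE 0.095, adjusted p = 0.924). Inf alone raised it by 0.75 (SE 0.074, adjusted p = 8.76e-10). The related Azin1, named after its values were seen, rose by 0.35 with IL-4/13 alone (adjusted p = 3.16e-05).

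**Figure D4:**
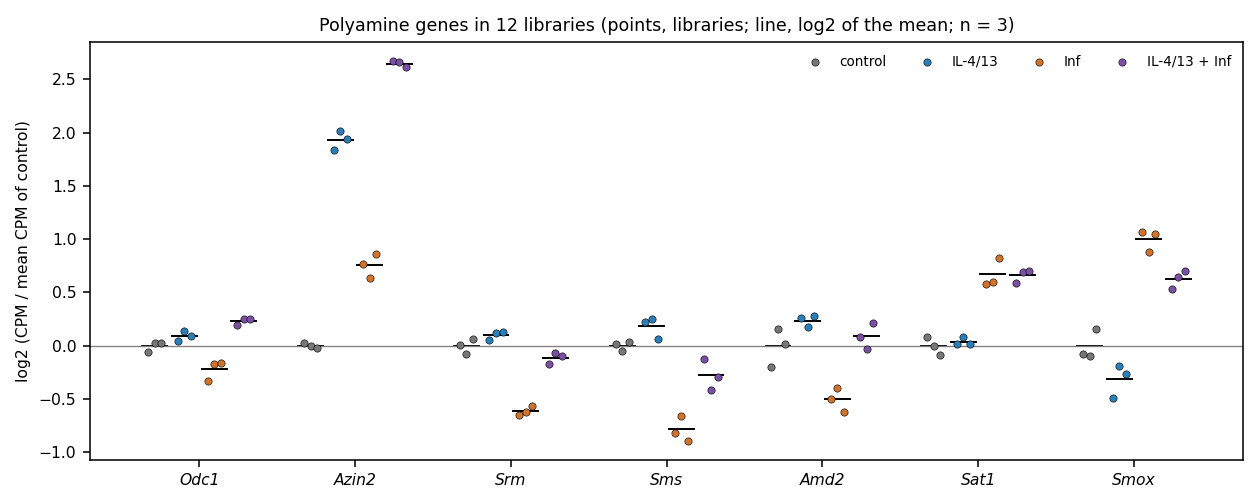
Log2 ratio of CPM to the mean of control (y axis) in each library (points, coloured by condition) for Odc1, Azin2, the synthesis genes Srm, Sms, and Amd2, and the breakdown genes Sat1 and Smox (x axis), with lines at the log2 of the mean ratio (n = 3). Srm, Sms, and Amd2 are lowest with Inf and higher with IL-4/13 + Inf, Sat1 and Smox are above control with Inf, and Azin2 is at about 1.93 with IL-4/13.

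In the branches of arginine and ornithine toward proline, glutamate, and creatine, 8 of 9 genes passed the filter. With Inf, 5 of the 8 fell and 1 rose, beside 15.3% and 16.3% of all tested genes, with a median log2 fold change of -0.29 (all genes, 0.01). IL-4/13 made no called difference in any of the 8, alone, where 2.78% of all genes rose and 2.57% fell, or on top of Inf, where 7.55% rose and 7.0% fell. Gamt, which completes creatine synthesis, was at 15.2 ± 0.055 CPM in control, 14.4 ± 0.94 with IL-4/13, 8.38 ± 0.13 with Inf, and 7.19 ± 0.58 with IL-4/13 + Inf. It fell by 0.86 with Inf (SE 0.11, adjusted p = 7.77e-08) and by 1.08 with IL-4/13 + Inf (SE 0.11, adjusted p = 1.11e-09). Among the others that fell with Inf were Aldh18a1, Pycr1, and Pycr3, enzymes of proline synthesis, and the 1 that rose was Aldh4a1, an enzyme of proline breakdown, all named after their values were seen. Over the 59 further genes of these pathways, 45 passed the filter. With Inf, 6 rose and 16 fell, where 16.3% and 15.3% of all tested genes did, and with IL-4/13 alone 5 rose and 1 fell (all genes, 2.78% and 2.57%). With IL-4/13 + Inf, 5 rose and 8 fell against control (all genes, 13.4% and 11.5%), and 11 rose and 4 fell against Inf (all genes, 7.55% and 7.0%).

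The response to IL-4/13 with Inf was compared with that without Inf by the interaction, in which 1.52% of all tested genes were called higher and 1.59% lower. Of the 9 tested genes, 2 were called higher (Slc7a1 and Odc1) and 1 lower (Slc7a2), and of the 45 further genes 2 were called higher (Slc3a2 and Srm) and 0 lower. For Slc7a1 and Srm, Inf lowered the level, IL-4/13 made no called difference in its absence, and adding IL-4/13 to Inf raised the level. Odc1 also rose where IL-4/13 were added to Inf, while its log2 fold change of -0.22 with Inf was short of the threshold.

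The genes whose log2 CPM followed each gene most closely over the 12 libraries were ranked by Pearson's r, which is a description here, since all points share their conditions. For Nos2 they were Bbln (r = 0.997) and H2-T10 (r = 0.997), for Slc7a2 Map3k8 (r = 0.998) and Zfp36l1 (r = 0.997), and for Sat1 Sc5d (r = 0.992) and Vmp1 (r = 0.984). Gch1 was followed by Lvrn (r = 0.990), Asl by Pced1c-ps (r = 0.987) and Tmem254 (r = 0.983), and Arg2, with few counts, by Gm11476 (r = 0.968) and Tbc1d2b (r = 0.957). Slc7a1 was followed by Rbm19 (r = 0.983) and Pwp2 (r = 0.983). For Ass1 the first was its own copy Gm5424 (r = 1.00), followed by the adhesion molecule gene Vcam1 (r = 0.996), and for Odc1 they were the chaperonin gene Cct3 (r = 0.968) and the copy Gm7993 (r = 0.963), where shared reads can set the likeness.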

How the data were processed

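RNA from 12 libraries of 3T3-L1 fibroblasts, 3 in each of 4 conditions, was sequenced by the authors from polyadenylated transcripts with a stranded kit. The authors deposited raw counts per gene, without normalization, for 56941 mouse genes. The submitters' processing notes name STAR, featureCounts, and GRCm39, and neither their versions nor the annotation and strand setting are given in the sources used here. Columns were matched to samples by name. For 23268 rows without a symbol, symbols were looked up in a table of gene names.

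Analysis started from the deposited counts with R 4.3.3 and edgeR 4.0.16. Genes were filtered with filterByExpr (minimum count 10, minimum total 15), counts were scaled with TMM factors, and all 12 libraries entered 1 robust quasi-likelihood fit with condition as its term. CPM are relative to library sizes scaled in this way. Each cytokine condition was compared with control and IL-4/13 + Inf with Inf, and the interaction subtracts the response to IL-4/13 in the absence of Inf from that in its presence. Benjamini-Hochberg adjustment ran over all 14810 tested genes in each contrast. The methods of the study name DESeq2 without thresholds for these libraries, so DESeq2 1.42.0 was an alternative, and the thresholds given for pseudobulk data (0.05 and 0.25) were used. The model was tested on simulated counts with the same spread for all genes and changes only in the conditions with IL-4/13. That simulation held no response to Inf. Intervals of ratios are exact, at 95%, and cover counting error only. A detection limit of 3 counts was used.

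The genes, the lists of pathway and marker genes, and the promoter motifs were chosen with earlier results of these data known. Pathway genes were named if called with a log2 fold change of at least 0.5 in any comparison, or called in the interaction, and for each tested gene the 2 genes of most similar log2 CPM (prior count 2) were named. Gene lengths and 50-base stretches came from GENCODE M21 (GRCm38), and promoter windows from RefSeq GRCm38.p6, since the build of the counts differs from that of the reference. Same-numbered libraries of different conditions did not deviate together (r from -0.146 to 0.054 over 18 pairs), so the numbers were not taken to pair libraries. The alternatives tried were DESeq2 as the tool, its size factors in edgeR, no scaling beyond library size, no filter, and a mean of at least 50 counts. Others were only the compared groups, a replicate block, each library left out, fold thresholds of 0 and 1, an adjusted p of 0.01, and another gene length. The last summed the counts of Ass1, Odc1, and Sat1 with those of every gene sharing a 50-base stretch with them. Results for a few genes are not reported here. The single-cell, qRT-PCR, and protein measurements were not analysed here.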

Additional observations from a re-analysis of the deposited data

Results flagged for a closer look

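For 5 genes the response to IL-4/13 differed between cells with and without Inf, by the interaction in edgeR's quasi-likelihood fit of all 12 libraries. The difference in log2 fold change was 0.45 for Slc7a1, 0.36 for Odc1, 0.40 for Srm, and 0.32 for Slc3a2, each a response that was higher with Inf. It was -1.04 for Slc7a2, whose response was smaller as a ratio and larger in CPM with Inf. The adjusted p was 0.000912 for Slc7a1, 0.00130 for Odc1, 0.000395 for Srm, 0.00159 for Slc3a2, and 6.88e-05 for Slc7a2. Leaving out each library in turn kept the difference between 0.38 and 0.52 for Slc7a1, between 0.32 and 0.40 for Odc1, and between -1.15 and -0.97 for Slc7a2. No group of 3 libraries was tested for outlying samples.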

How the results depend on the processing

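Of 847 log2 fold changes of the 9 tested genes under the alternatives, 824 kept their direction and their side of the threshold, 5 lost and 3 gained a call, and 15 changed sign, all of the latter uncalled and with a library left out. Leaving out each library gave 1 of the 9 genes called with IL-4/13, 8 with Inf, 6 to 8 with IL-4/13 + Inf against control, 4 against Inf, and 3 in the interaction. With a fold threshold of 1 in place of 0.25, 5 were called with Inf, 5 with IL-4/13 + Inf against control, 0 against Inf, and 1 in the interaction. That threshold left 108, 1095, 1096, 238, and 40 of all genes in the 5 contrasts, and 1, 2, 4, 1, and 0 of the 45 further pathway genes, while a threshold of 0 gave 1274 of all genes with IL-4/13 and 3308 for IL-4/13 + Inf against Inf, and 12, 20, and 4 pathway genes with IL-4/13, with IL-4/13 + Inf against control, and in the interaction. At an adjusted p of 0.01, 277 of all genes were called in the interaction, and without Inf replicate 3 there were 6 pathway genes in it. With the replicate block, the counts for the 9 genes were 1, 8, 8, 4, and 3, as without it, and the same-numbered libraries share only a number. Of all genes, 717, 4619, 3610, 2069, and 410 were called with the block, and of the pathway genes 3 in the interaction. With the longest transcript as gene length, the ratio of Slc7a2 to Slc7a1 was 0.0180 in control, 0.0584 with IL-4/13, 1.42 with Inf, and 1.65 with IL-4/13 + Inf.

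The values that changed sign when a library was left out ranged as follows. With IL-4/13 they were -1.23 to 3.62 for Arg2, -0.055 to 0.013 for Slc7a1, -0.0041 to 0.084 for Sat1, and -0.080 to 0.042 for Slc25a15. Against Inf they were -0.052 to 0.072 for Sat1 and -0.038 to 0.074 for Prkg2. In the interaction they were -4.34 to 0.51 for Arg2, -0.0048 to 0.10 for Ass1, -0.86 to 0.063 for Gch1, -0.095 to 0.038 for Sat1, -0.095 to 0.032 for Azin2, and -0.15 to 0.0092 for Smox. The fall of Sms with IL-4/13 + Inf against control was no longer called without control replicate 1 or 3 or IL-4/13 + Inf replicate 2 or 3. Depth limits Arg1, Arg2, Gch1, and, without Inf, Nos2.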
